A study of Mus musculus with 8 samples.

Results

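Epcam, a cell-surface adhesion protein of epithelia, and 6 genes for epithelial serine proteases and Kunitz-type inhibitors were followed in BMEL cells with and without GRHL2. The genes were chosen by name from a list of 8 (Epcam, Spint1, Spint2, St14, Prss8, Prss22, Tmprss2 and Hpn), with earlier results of these data known. Of the 8 names, 7 are among the 18671 genes of the expression table. Hpn was not analysed here.

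BMEL are bipotential mouse embryonic liver cells, a line with features of the common progenitor of hepatocytes and cholangiocytes, grown on collagen in serum with IGFII, EGF and insulin. In 4 GRHL2 samples the cells had received a plasmid coding for human GRHL2 with a flag tag, driven by the EEF1A1 promoter and paired in the same transcript with enhanced green fluorescent protein. The 4 control samples had received pcDNA3, so that GRHL2, the fluorescent protein and the plasmid backbone all differ between the groups. Transfection was transient, RNA was taken 48 h later, and the samples carry replicate numbers 1 to 4 in each group. The study describes the replicates as biologically independent.

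Expression is given as a log2 value per gene, read here as a regularised log2 count less the log2 of transcript length. The study's wording is a division by length. A literal division of log2 counts by length in kb would need log2 counts above 32 in 622 of 18402 genes with an annotated length, up to 448, whereas the subtraction gives -0.80 to 17.84. Levels, fold changes and their order between genes rest on the subtraction. Fold changes on this scale are damped for genes with few reads, and the depth behind each value is unknown because no counts were used. In a bulk RNA sample, a change in RNA per cell and a change in the number of expressing cells cannot be told apart, and a sample holds transfected and untransfected cells together. The Grhl2 row, which checks the labels, read 6.30, 6.96, 5.65 and 6.05 in GRHL2 replicates 1 to 4 and 4.68, 4.57, 4.42 and 4.44 in control replicates 1 to 4. All GRHL2 samples were above all controls (log2 fold change 1.71, adjusted p = 0.00100, limma), although this is the mouse gene and reads of the human plasmid cDNA could be counted only as far as they map to it. Across all genes tested, 1957 were higher in GRHL2 samples (10.5%) and 1104 were lower (5.91%) at an adjusted p under 0.05. These shares depend on the scaling, as with equal medians 1119 were higher and 1256 lower.

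Matriptase, encoded by St14, is a transmembrane protease of the epithelial surface that works in a loop with the GPI-anchored protease prostasin, encoded by Prss8. The Kunitz-domain proteins HAI-1 (Spint1) and HAI-2 (Spint2) sit in the same membranes and restrain both enzymes, and matriptase can cleave Epcam, which destabilises its partner claudins. In the liver, Epcam is carried by cholangiocytes and progenitor cells and is absent from most mature hepatocytes.

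Of the 7 genes, 4 matched an entry in the RefSeq promoter table used here (GRCm38.p6), and the 250 bases before their start are shown because grainyhead factors are known to bind the palindrome AACCGGTT and near variants of it. Epcam lies at chr17:87635979-87651129 on the plus strand and Spint1 at chr2:119237362-119249527 on the plus strand (GENCODE, GRCm38). Spint2 lies at chr7:29256323-29281912 and Tmprss2 at chr16:97564682-97611195, both on the minus strand. The windows are chr17:87635729-87635978 for Epcam, chr2:119237110-119237359 for Spint1, chr7:29281978-29282227 for Spint2 and chr16:97611196-97611445 for Tmprss2. None of the 4 windows overlaps an annotated exon. Each is written 5′ to 3′ on the strand of its gene, and capitals mark the core ACCGGT.
Epcam: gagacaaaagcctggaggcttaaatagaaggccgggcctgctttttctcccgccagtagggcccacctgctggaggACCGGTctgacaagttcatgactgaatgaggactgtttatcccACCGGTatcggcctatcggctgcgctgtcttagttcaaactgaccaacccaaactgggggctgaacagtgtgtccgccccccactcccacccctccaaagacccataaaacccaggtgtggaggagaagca
Spint1: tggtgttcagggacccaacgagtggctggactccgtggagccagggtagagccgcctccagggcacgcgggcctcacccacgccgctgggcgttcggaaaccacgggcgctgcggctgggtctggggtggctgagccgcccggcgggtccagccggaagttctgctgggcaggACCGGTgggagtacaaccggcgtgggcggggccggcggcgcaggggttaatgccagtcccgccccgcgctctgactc
Spint2: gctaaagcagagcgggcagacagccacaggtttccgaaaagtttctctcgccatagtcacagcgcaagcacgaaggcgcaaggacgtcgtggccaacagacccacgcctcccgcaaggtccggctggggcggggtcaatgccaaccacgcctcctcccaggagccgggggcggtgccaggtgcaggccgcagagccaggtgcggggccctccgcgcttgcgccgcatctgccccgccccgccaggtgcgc
Tmprss2: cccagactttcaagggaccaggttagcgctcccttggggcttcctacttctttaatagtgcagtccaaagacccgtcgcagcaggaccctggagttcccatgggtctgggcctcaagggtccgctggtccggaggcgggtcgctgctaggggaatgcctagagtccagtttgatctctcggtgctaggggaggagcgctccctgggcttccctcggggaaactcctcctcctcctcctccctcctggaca

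The full AACCGGTT is in none of these 4 windows, nor are AACCNGTT and AACNNGTT, when both strands are read. The core ACCGGT, which lies inside AACCGGTT, starts at -174 and -131 in the Epcam window and at -77 in the Spint1 window, counted back from the first transcribed base. With 1 base on each side these matches read GACCGGTC and CACCGGTA in Epcam and GACCGGTG in Spint1. The spaced form ACCNGGT occurs in the Tmprss2 window, at -234 as ACCAGGT, and none of the motifs occurs in the Spint2 window. Among 32851 promoter windows of the same length, 1.86% hold ACCGGT at least once and 0.0274% hold it 2 or more times, whereas AACCGGTT is in 0.116%, AACCNGTT in 1.79%, AACNNGTT in 3.64% and ACCNGGT in 4.09%. The core was chosen for display after the sequences had been seen, and a match describes letters, not binding. The windows differ in base composition, with 56.4% G and C for Epcam, 72.8% for Spint1, 69.6% for Spint2 and 61.6% for Tmprss2.

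Before turning to the changes, the control cells give the ground levels. Spint2 was the highest at 9.98 ± 0.21 (SD, n = 4, as for all group values here), and Tmprss2 followed at 9.52 ± 0.30, their samples overlapping. Epcam came next at 6.43 ± 0.053, near the middle of the table at percentile 49.9. Prss22 at 5.75 ± 0.041, Prss8 at 5.49 ± 0.066 and Spint1 at 4.80 ± 0.017 followed without overlap between neighbours. St14 was far lower at 2.62 ± 0.055, at percentile 25.5 of all genes, the least abundant of the 7 transcripts per unit length. With GRHL2, Spint2 and Tmprss2 stayed on top with overlapping samples, the order from Epcam to Prss22 held, and Prss8 and Spint1 came to overlap, at 6.11 ± 0.068 and 5.98 ± 0.17.

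Of the 7 genes, 6 were higher in GRHL2 samples at an adjusted p under 0.05 (limma over all 18671 genes) and none was lower, against 10.5% and 5.91% of all genes. In the same 6 genes every GRHL2 sample was above every control sample, which held for 14.3% of all genes. For Tmprss2 the groups overlapped, and it passed not in this fit but in the one that pairs same-numbered samples, in which all 7 genes passed against 18.2% of all genes. Prss8 was in the middle of the 7, so that their median change was 0.62 log2 units beside 0.0066 over the table. By the exact two-sided permutation test of group means, the 6 separated genes reached 0.0286, the smallest p that 4 against 4 samples can give. For these 6 genes it restates the separation of the groups. Tmprss2 had p = 0.0857 by the same exact permutation test, which does not use the pairs. The exact permutation test within same-numbered pairs gave p = 0.125 for each of the 7 genes. With all 4 pairs already higher in GRHL2 samples, the test within pairs cannot give a lower p, so it decides nothing at 0.05. The order of the changes was Epcam, Prss22, Spint1, Prss8, Tmprss2, Spint2 and St14.

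**Figure D1:**
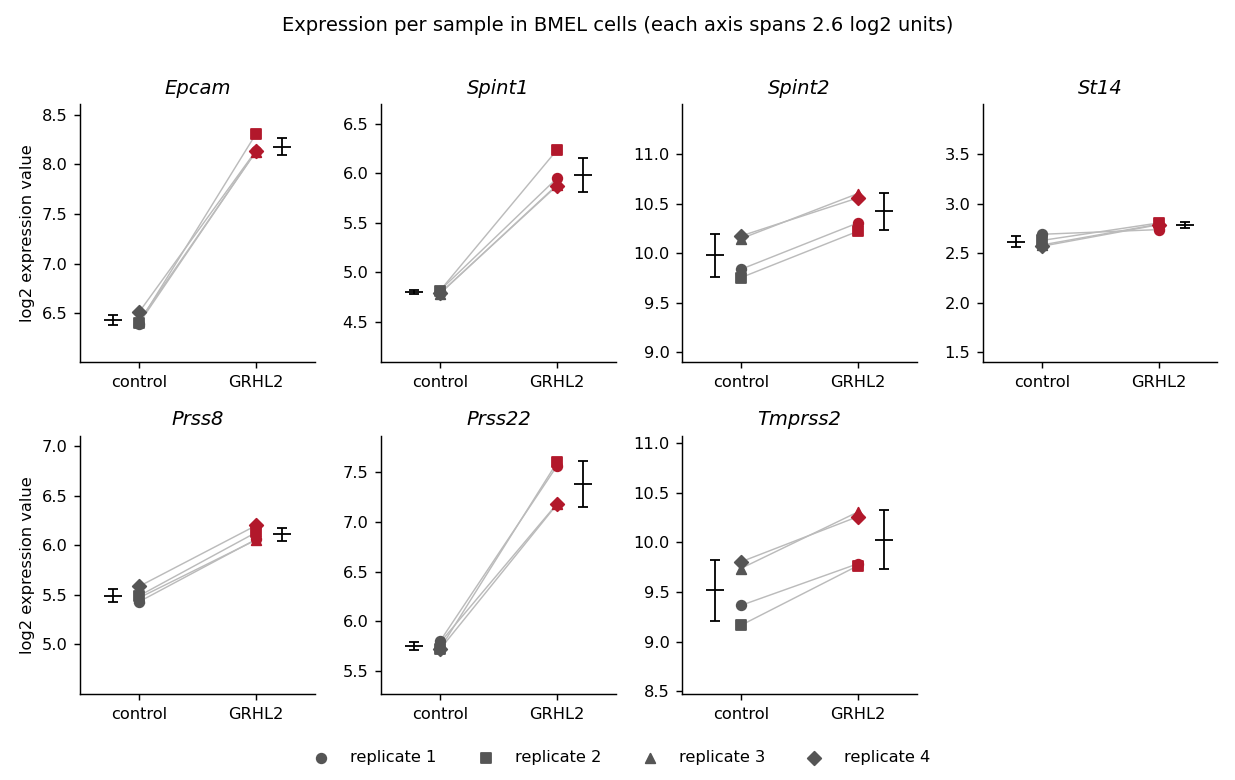
Log2 expression value per sample (vertical axis, every panel spanning 2.6 log2 units) in control and GRHL2 samples for the 7 genes. Marker shapes are replicate numbers, grey lines join equal numbers, and black bars are the mean ± SD (n = 4). Epcam, Prss22 and Spint1 separate widely, and Tmprss2 and Spint2 move in parallel pairs.

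Epcam, the adhesion protein of the set, had the largest change. Its values were 8.13, 8.31, 8.13 and 8.14 in GRHL2 replicates 1 to 4 and 6.39, 6.40, 6.42 and 6.51 in control replicates 1 to 4. The groups stand well apart, and replicate 2 is the highest of the GRHL2 samples. The log2 fold change of 1.75 (SE 0.054, 95% interval 1.63 to 1.87, adjusted p = 4.59e-07), or 3.36-fold, ranked 2 among the increases of all 18671 genes. Pair by pair, the differences were 1.74, 1.91, 1.71 and 1.63. Epcam thus went from the middle of the table to a level that in controls only Spint2 and Tmprss2 of the 7 exceeded.

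Of the 2 Kunitz inhibitors, Spint1 changed the more. Spint1 encodes HAI-1, the main partner inhibitor of matriptase, and read 5.95, 6.23, 5.88 and 5.87 in the GRHL2 samples, in the order of their replicate numbers, while the controls read 4.82, 4.81, 4.78 and 4.79. The controls lie within 0.031 of each other, and every GRHL2 sample is more than 1 log2 unit above its same-numbered control. Its log2 fold change was 1.18 (SE 0.073, 95% interval 1.02 to 1.35, adjusted p = 2.90e-05), or 2.27-fold, rank 19 of all genes.

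Spint2 encodes HAI-2, which inhibits matriptase, prostasin and hepsin. It read 10.31, 10.22, 10.60 and 10.56 in GRHL2 replicates 1 to 4 and 9.84, 9.75, 10.15 and 10.17 in control replicates 1 to 4. In both groups replicates 3 and 4 are higher than replicates 1 and 2, and the lowest GRHL2 sample is just above the highest control. On the log2 scale the difference was 0.44 (SE 0.12, 95% interval 0.18 to 0.70, adjusted p = 0.0287), or 1.36-fold. The 4 pair differences were 0.47, 0.47, 0.46 and 0.39. The call was lost without GRHL2 replicate 3 (adjusted p = 0.0753), without GRHL2 replicate 4 (0.0741), without control replicate 1 (0.0856) and without control replicate 2 (0.0692).

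St14, the gene for matriptase itself, moved the least. It was also the lowest of the 7 in controls, and this scale damps changes of genes with few reads. Its values were 2.74, 2.81, 2.79 and 2.79 in GRHL2 replicates 1 to 4 and 2.69, 2.63, 2.58 and 2.57 in control replicates 1 to 4. The groups do not overlap, but in replicate 1 they are only 0.047 apart. This amounts to a log2 fold change of 0.16 (SE 0.031, 95% interval 0.095 to 0.23, adjusted p = 0.00652), or 1.12-fold, with a rank of 1936 among the increases. The increase was 0.11 within replicates 1 and 2 and 0.21 within replicates 3 and 4, and it was called in each of the 16 settings that kept the gene. St14 lies at chr9:31089402-31131853 on the minus strand.

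Prss8 encodes prostasin, which activates matriptase and is activated by it. It read 6.06, 6.13, 6.05 and 6.20 in GRHL2 replicates 1 to 4 and 5.43, 5.49, 5.47 and 5.58 in control replicates 1 to 4. All GRHL2 samples were higher, with pair differences of 0.63, 0.64, 0.58 and 0.61. The change was 0.62 on the log2 scale (SE 0.049, 95% interval 0.51 to 0.73, adjusted p = 9.79e-05), or 1.53-fold. Prss8 (chr7:127925716-127930104, minus strand) shares 122 exon bases with Kat8 on the opposite strand, and strand was not used in counting as far as the study's bulk RNA methods apply here. Kat8, a histone acetyltransferase gene, differed by -0.11 log2 units (adjusted p = 0.269).

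Prss22 encodes tryptase epsilon, a trypsin-like protease of airway and other epithelia, and had the second largest change of the 7. Its values were 7.57, 7.60, 7.18 and 7.18 in GRHL2 replicates 1 to 4 and 5.80, 5.72, 5.78 and 5.72 in control replicates 1 to 4. Within the GRHL2 group, replicates 1 and 2 are higher than replicates 3 and 4, whereas the controls show no such split. GRHL2 samples exceeded controls by 1.63 log2 units (SE 0.098, 95% interval 1.41 to 1.85, adjusted p = 2.76e-05), or 3.09-fold, rank 5 of all genes. It was 1.82 within replicates 1 and 2 and 1.43 within replicates 3 and 4.

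Tmprss2 encodes a type II transmembrane serine protease of secretory epithelia. It read 9.79, 9.77, 10.31 and 10.26 in GRHL2 replicates 1 to 4 and 9.36, 9.16, 9.74 and 9.80 in control replicates 1 to 4. As for Spint2, replicates 3 and 4 are the higher ones in both groups, and the highest control sample lies above the lowest GRHL2 samples. The log2 fold change of 0.51 (SE 0.17, 95% interval 0.13 to 0.89) had an adjusted p of 0.0667. The pair differences of 0.42, 0.60, 0.57 and 0.46 are all positive, and the replicate block gave an SE of 0.041 and an adjusted p of 7.95e-05. It also passed without GRHL2 replicate 2 (log2 fold change 0.60, adjusted p = 0.0488) and without control replicate 4 (0.61, adjusted p = 0.0491).

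**Figure D2:**
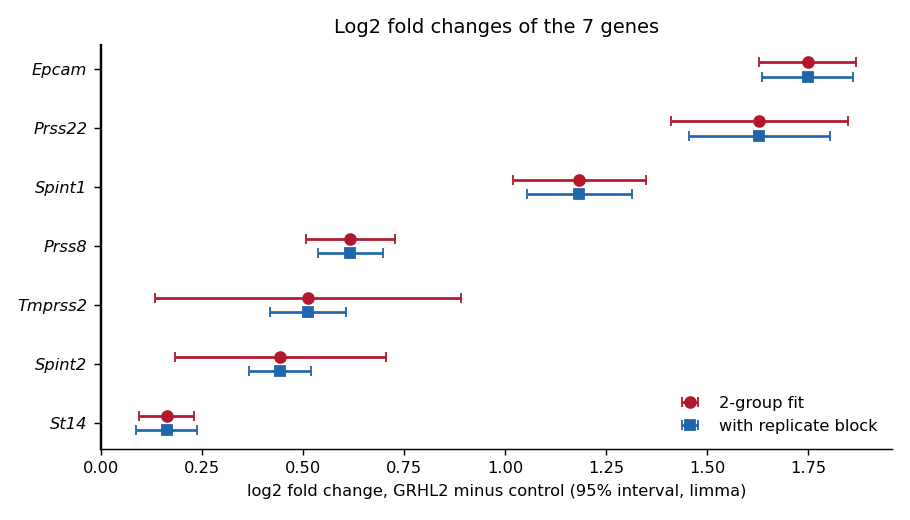
Log2 fold change, GRHL2 minus control (horizontal axis), with the 95% interval from limma for each of the 7 genes, in the fit of 2 groups (circles) and in the fit with the replicate number as a block (squares). The intervals of Spint2 and Tmprss2 narrow with the block, and that of Epcam lies highest, at 1.63 to 1.87 without it.

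The balance of inhibitor and protease transcripts within a sample can be read from differences between members, given here as a description without a test. The scale damps changes of genes with few reads, and its part in the differences with St14 was not tested. Spint1 exceeded St14 by 2.18 ± 0.041 log2 units in controls and by 3.20 ± 0.16 with GRHL2. Spint1 less Prss8 was -0.69 ± 0.076 in controls and -0.13 ± 0.18 with GRHL2, where it ran from -0.33 to 0.11 and so crossed 0. Spint2 less St14 was 7.36 ± 0.26 in controls and 7.64 ± 0.18 with GRHL2, with groups that overlapped. Between the 2 proteases of the loop, Prss8 less St14 was 2.87 ± 0.11 in controls and 3.33 ± 0.062 with GRHL2. Between the inhibitors, Spint2 less Spint1 was 5.18 ± 0.23 in controls and 4.44 ± 0.34 with GRHL2. Spint2 less Tmprss2 read 0.46 ± 0.096 and 0.39 ± 0.11, and here the groups overlapped.

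**Figure D3:**
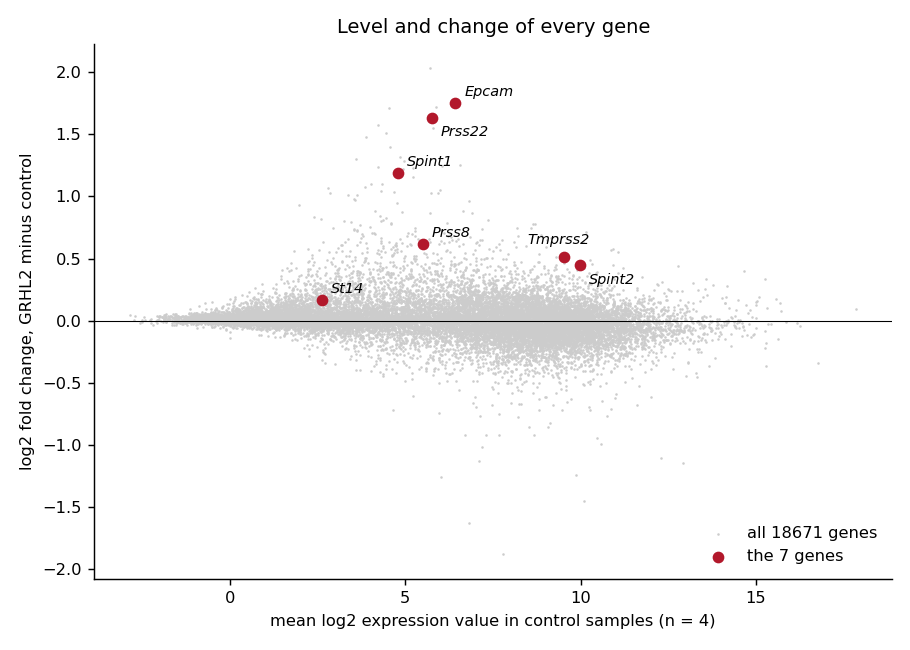
Mean log2 expression value in the 4 control samples (horizontal axis) against the log2 fold change, GRHL2 minus control (vertical axis), for all 18671 genes (grey) and the 7 genes (red). Changes of any gene are small at the left, where St14 (0.16) lies, and Epcam, Prss22 and Spint1 are near the upper edge of the cloud.

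For the members that passed the test with a log2 fold change of at least 0.5, the genes with the nearest profile over the 8 samples were sought, as the root mean square difference between values centred on each gene's mean. Nearest to Epcam was Cldn4 (claudin 4, a tight junction protein) at 0.0586 log2 units, followed by Prss22 at 0.141. Nearest to Prss22 were Tchh at 0.137 and Epcam at 0.141. Nearest to Spint1 were Elfn1 at 0.0818 and Kif5a at 0.0912, and nearest to Prss8 were Sprr2a3 at 0.0673 and Ptprv at 0.0674. Each of these profiles consists mainly of the step between the 2 groups.

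Around the 7 genes, 6 lists of related genes were read from the same fit, 54 of their 74 names being in the table. Of the 54, 12 were higher and 1 was lower (10.5% and 5.91% of all genes), their median change being 0.044 log2 units, and with the replicate block 21 were higher and 4 lower (18.2% and 13.9% of all genes). Among partners of Epcam and the enzymes that cleave it, 2 of 12 were higher and none was lower, and 5 were higher with the replicate block, beside 10.5% and 18.2% of all genes. With so few genes these and the list counts that follow are read as descriptions only. The block added Cd44 (0.18, adjusted p = 0.00207), Ctnnb1 (0.10, 0.0370) and Tspan8 (0.10, 0.0499), named after their values were seen. Cldn4 rose by 1.71 (adjusted p = 3.24e-06), from 5.87 to 7.59. Bace1, an aspartyl protease, rose by 0.27 (adjusted p = 0.00296). Cldn7, the claudin most often found in complex with Epcam, was low at 1.33 in controls and 1.32 with GRHL2 (log2 fold change -0.013, adjusted p = 0.652), a sign that flips under 2 other scalings.

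Among substrates and receptors of these proteases, 5 of 14 were higher and none was lower, whereas 7 were higher and 1 was lower with the replicate block. Over all genes these shares were 10.5% and 5.91%, and 18.2% and 13.9% with the block. The block added Mst1 (0.21, adjusted p = 0.00410), Cdcp1 (0.16, 0.00617) and the lower Plat (-0.17, 0.0112), named after their values were seen. Without the block, Cdcp1 also passed in limma without GRHL2 replicate 2 (0.11, adjusted p = 0.0493) and without GRHL2 replicate 4 (0.20, 0.0275). Mst1 passed without control replicate 4 (0.30, 0.0346). Plau, which encodes the plasminogen activator urokinase, rose by 0.65 (adjusted p = 2.07e-04). F2rl1, which encodes the protease-activated receptor PAR2, rose by 0.41 (adjusted p = 0.0154). The others, named after their values were seen, were F2r (the thrombin receptor, 0.39), Hgfac (a serine protease that activates hepatocyte growth factor, 0.36) and Scnn1a (a subunit of the epithelial sodium channel, 0.19). The Hgfac call was lost without GRHL2 replicate 3 (adjusted p = 0.0652), without GRHL2 replicate 4 (0.0623) and without control replicate 1 (0.0735). Met and Mst1r, which encode the receptors downstream of the growth factors that these proteases activate, were also singled out afterwards, with differences of -0.028 (adjusted p = 0.712) and 0.063 (adjusted p = 0.509).

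Of the other Kunitz-domain genes 7 were in the table. None passed in limma, beside 10.5% of all genes higher and 5.91% lower, so no contrast with Spint1 and Spint2 is drawn. At an unadjusted p under 0.05, 2 were higher and 2 lower, beside 18.4% and 12.7% of all genes. The same 4 passed with the replicate block, 2 higher and 2 lower, beside 18.2% and 13.9% of all genes. Without GRHL2 replicate 2 or without GRHL2 replicate 3, 1 was higher. These 4, named after their values were seen, were Aplp2 (0.26, and 0.32 with adjusted p = 0.0306 without GRHL2 replicate 2) and Tfpi2 (0.076), and Wfikkn1 (-0.15) and Wfikkn2 (-0.16). Of 8 serpins known to inhibit membrane serine proteases, 1 was higher and 1 lower, near the 10.5% and 5.91% of all genes. Serpine2 rose by 0.24 (adjusted p = 0.0106) and Serpinc1, which encodes antithrombin, fell by 0.18 (adjusted p = 0.0180). Serpinb5, singled out afterwards, differed by 0.42 (adjusted p = 0.0638, and 0.00692 under the replicate block), it passed without GRHL2 replicate 4 (0.51, adjusted p = 0.0381), and without GRHL2 replicate 2 it was 0.27 (adjusted p = 0.0566).

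Of 11 other type II transmembrane serine proteases, 3 were higher and none lower, all at low levels, and 4 were higher with the replicate block, which added Tmprss11d (0.040, adjusted p = 0.0353). Of all genes 10.5% were higher, and 18.2% with the block. The count depended on scaling, at 7 with equal sums, 5 with equal upper quartiles and 1 with equal medians. In these settings 2912, 3064 and 1119 of all 18671 genes were higher. Among genes with a mean of at least 3 the count was 0, beside 1154 higher over the table. Tmprss11e rose by 0.14 (adjusted p = 0.0100), from 0.91 to 1.05. Tmprss13 rose by 0.10 (adjusted p = 4.04e-04), from 0.33 to 0.43. Tmprss6, named after its value was seen, differed by 0.087 log2 units (adjusted p = 0.0267), a call lost in 5 of 8 fits that left out 1 library, GRHL2 replicate 1, 3 or 4 or control replicate 1 or 2, and with equal medians (0.057, adjusted p = 0.134). Of 2 other membrane-anchored trypsin-like proteases 1 was higher (10.5% of all genes), Prss27, at 0.94 (adjusted p = 9.86e-04), from 4.77 to 5.71.

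**Figure D4:**
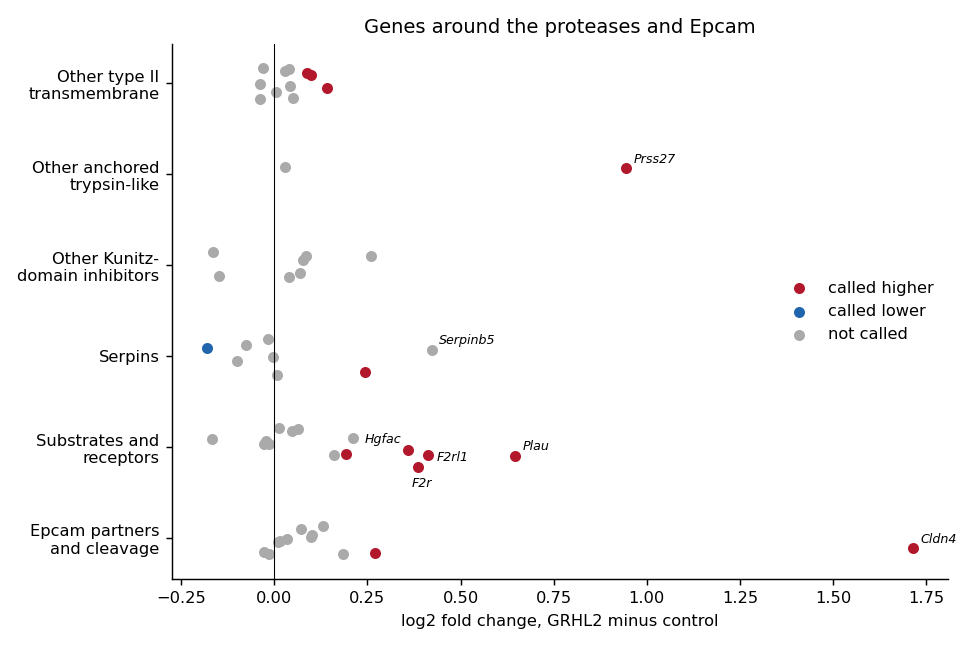
Log2 fold change, GRHL2 minus control (horizontal axis), of each gene in the 6 lists (rows, points spread vertically for legibility). Red points were higher, blue lower and grey not called at an adjusted p under 0.05 (limma). Cldn4 at 1.71, Prss27 at 0.94 and Plau at 0.65 lie farthest to the right.

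Prss22 and Prss8 both lie among other serine protease genes, and these neighbours were looked at after the values were known. Prss22 (chr17:23993534-23998100, minus strand) is 40044 bases from Prss27. Of the 39 other genes of the table within 500 kb of Prss22, 2 are serine protease genes, Prss27 and Prss32, and both passed. Prss32 changed by only 0.081 (adjusted p = 0.0354), a call lost in each of the 8 fits that left out 1 library and with equal medians (0.051, adjusted p = 0.280). Of the other 37 genes 4 were higher, or 10.8%, beside 10.5% of all genes. Prss36 lies 2534 bases from Prss8, also on the minus strand, and was at 5.46 in controls and 5.90 with GRHL2 (log2 fold change 0.44, adjusted p = 6.40e-04). Of the other 36 genes of the table within 500 kb of Prss8, 1 was higher, or 2.78%.

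**Figure D5:**
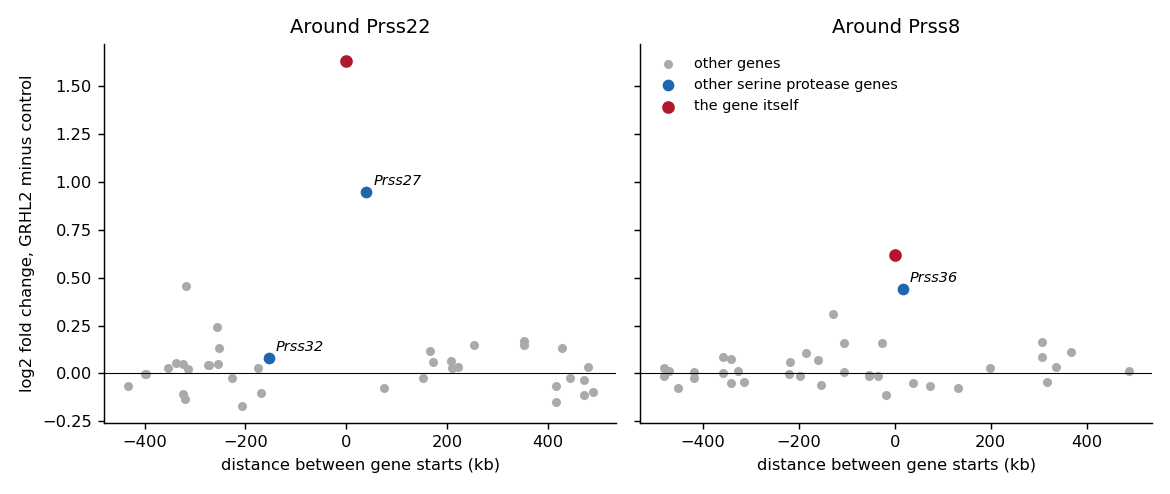
Log2 fold change, GRHL2 minus control (vertical axis), against the distance between gene starts in kb (horizontal axis) for the genes of the table within 500 kb of Prss22 (left) and Prss8 (right). Red is the gene itself and blue the other serine protease genes. Prss27 (0.94) and Prss36 (0.44) stand above most of their neighbours.

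Marker lists of the cell types that a liver culture can hold were read beside these results. Of the biliary markers, Krt19 was at 15.05 in controls and 15.21 with GRHL2 and Krt7 at 12.79 and 13.23, while Sox9 was lowest of the 5 at 6.64 and 6.99, near the table median of 6.45. Of the 5, 1 was higher in the main comparison and all 5 with the replicate block, beside 10.5% and 18.2% of all genes. Their 5 log2 values summed to 52.7 to 54.8 in controls and 54.8 to 56.5 with GRHL2. Of 4 hepatoblast markers none was higher and 1 was lower, beside 10.5% and 5.91% of all genes. The lower one was Afp, with a log2 fold change of -0.21, and Alb was at 5.25 and 5.18. Their sums were 34.6 to 35.4 in controls and 34.5 to 35.3 with GRHL2. Of 5 mesenchymal markers 1 was higher and 1 lower, beside 10.5% and 5.91% of all genes. The higher one was Pdgfrb (0.11, adjusted p = 0.00886, limma), at -0.23 in controls and -0.12 with GRHL2. The lower one was Vim, with a log2 fold change of -0.37. With the replicate block 2 were higher and 1 lower, beside 18.2% and 13.9% of all genes, and the block added Col1a1 at an adjusted p of 0.0281. Col1a1 was at 5.22 and 5.35. The mesenchymal sums were 23.7 to 24.2 in controls and 23.8 to 24.0 with GRHL2. None of 4 endothelial markers and none of 4 leukocyte markers passed in limma, beside 10.5% higher and 5.91% lower of all genes. At an unadjusted p under 0.05, 2 endothelial markers were higher and 1 lower, and 1 leukocyte marker was higher, beside 18.4% and 12.7% of all genes. The replicate block gave 2 endothelial markers and 1 leukocyte marker higher and none lower, beside 18.2% and 13.9% of all genes. Endothelial Pecam1 was at 3.33 and 3.25 and Cdh5 at 1.23 and 1.24, Kdr at 2.31 and 2.45 (adjusted p = 0.0411 with the replicate block) and Tek at 1.63 and 1.72 (0.0234 with the block), with sums of 8.41 to 8.56 in controls and 8.45 to 9.0 with GRHL2. Leukocyte Ptprc was low at 0.90 and 0.88 and Cd68 was at 6.08 and 6.25, with sums of 9.85 to 10.12 in controls and 10.06 to 10.14 with GRHL2. No table value is 0, and the part of these cell types in the changes of Epcam and the proteases was not tested.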

How the data were processed

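RNA of 4 GRHL2 and 4 control samples of BMEL cells was sequenced as paired reads. The submitters' processing notes list HISAT2 2.2.1, HTSeq 0.9.1, DESeq2 1.40.2 and the builds mm10 and GRCm39. As far as the study's methods for bulk RNA apply to these samples, exon reads were counted without strand, genes under 10 cumulated reads were removed, and regularised log values were divided by mean transcript length. The authors deposited 1 table of 18671 genes, read here as log2 values because 4.81% are below 0 and they span -2.85 to 18.01, although its name says FPKM. No column was left without a sample. The values do not reveal how deeply each sample was sequenced, so depth is unknown.

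The 2 groups were compared with limma 3.58.1 (R 4.3.3) on the deposited log2 values, with a mean-variance trend, two-sided, Benjamini-Hochberg adjustment over all genes and a threshold of 0.05, after testing on simulated data. Exact permutation of 4 against 4 samples cannot give a p below 0.0286. Same-numbered samples deviated together from their group means (r = 0.474, 0.565, 0.549 and 0.645 for replicates 1 to 4, across genes), and were taken as pairs, and the fit with the replicate block is given where it changes a call. Different numbers within replicates 1 and 2 and within 3 and 4 also deviated together (r = 0.345 to 0.602), and GRHL2 replicate 3 was closer to control replicate 4 (0.602) than to control replicate 3, so the table separates these 2 sets more than single pairs. In each group replicates 3 and 4 were more alike than any other pair (SD of the difference across genes 0.0726 in GRHL2 samples and 0.0723 in controls, against 0.0937 to 0.174 elsewhere) and were kept separate. Named genes were all members, Grhl2, the 2 called genes with the largest change in each list, and the 2 nearest profiles. Other genes named in the text were picked after their values were seen, and 1 gene of the rule is not reported here. The members and lists were chosen with earlier results of these data known. Alternatives were 3 other scalings, the block, a term for replicates 1 and 2 against 3 and 4, a minimum mean of 3, no trend, leaving out each library and, added after seeing the data, averaging replicates 3 and 4. Gene positions are from GENCODE (GRCm38), the build named mm10.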

Additional observations from a re-analysis of the deposited data

Results flagged for a closer look

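Epcam in GRHL2 replicate 2 stood apart from the other samples of its group, at 8.31 (8.3082) against 8.13 to 8.14 in replicates 1, 3 and 4. The gap to the nearest sample was 0.943 of the range of the group. The same measure was taken in 34 groups of 4 samples over 17 genes, of which this was the only group with such a sample, and chance gives about 1 in 20, or 1.7 groups. Without this library the log2 fold change of Epcam was 1.70, the lowest of the fits that left out 1 library, which ran from 1.70 to 1.77.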

How the results depend on the processing

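Epcam, Spint1, Prss8 and Prss22 were called higher in all 17 settings and St14 in all 16 that kept it, Spint2 in 12 of 17 and Tmprss2 in 6 of 17, and between 5 and 7 of the 7 genes were called in any setting. Genes called higher over the table (1957) were 3064 with equal upper quartiles, 1119 with equal medians, 3396 with the replicate block, 1154 with a minimum mean of 3 and 3270 with a term for replicates 1 and 2 against 3 and 4. Genes called lower (1104) were 2589 with the replicate block, 2478 with that term, 521 with replicates 3 and 4 averaged and 690 to 1036 without 1 library. The share of higher calls, 63.9%, was 75.9% with equal upper quartiles, 77.0% with equal sums, 47.1% with equal medians and 52.7% with the minimum mean. Genes of the related lists called higher (12) were 20 with equal upper quartiles, 21 with equal sums, 21 with the replicate block and 20 with the term; those called lower (1) were 2 with equal medians, 4 with the block, 2 without a trend, 4 with the term and 1 to 2 without 1 library. Within replicates 1 and 2 and within replicates 3 and 4 the log2 fold changes were 1.82 and 1.67 for Epcam, 0.11 and 0.21 for St14, and 1.82 and 1.43 for Prss22. Spint2 was 0.45 (adjusted p = 0.0672) with replicates 3 and 4 averaged and 0.37 to 0.51 without 1 library. Tmprss2 was 0.54 with equal upper quartiles (adjusted p = 0.0485), 0.54 with equal sums (0.0491), 0.51 with the replicate block, 0.51 with the term (3.90e-05) and 0.39 to 0.61 without 1 library. Cldn7 turned to 0.0092 with equal upper quartiles and 0.011 with equal sums. Of the named genes, Tmprss11e (0.11, adjusted p = 0.0598), Tmprss6 and Prss32 did not pass with equal medians, and Tmprss6 (adjusted p = 0.0545) and Prss32 (0.0566) did not without a trend. Other Kunitz-domain genes called higher (0) were 2 with equal upper quartiles and 1 with equal sums. The cause of these differences was not tested. Depth is unknown, and regularisation damps differences of genes with few reads, the extent of which was not tested here for St14.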
